A study of Sus scrofa with 24 samples.

Results

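Longissimus dorsi (LD) muscle of pigs at 4 months of age was compared between 6 crossbred Iberian x Duroc (IBxDU) and 6 pure Iberian (IB) males, as 1 library per animal. These 12 libraries are all of the 4-month libraries among the 24 of the series, and they were taken by the age and genotype in the sample labels. The other 12 libraries, of newborns of both genetic types, serve only as a second age. All dams were pure Iberian sows kept under the same conditions and mated to Duroc or Iberian boars, so that the genetic types differ by the sire breed. Several litters of each genetic type were sampled, so that litter varies within a type, but the labels name no litter or sire and neither could enter the fits.

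The Iberian is a slow-growing, fat pig breed of the Iberian peninsula whose meat is known for its marbling, and the Duroc is a leaner breed that is widely used as a terminal sire. LD is the main muscle of the loin and consists mostly of fast fibres. Between the fibres lie fibroblasts, which secrete collagens and other matrix proteins, together with capillary endothelium, macrophages, adipocytes of the marbling fat, satellite cells and nerve. In RNA from whole muscle, fewer cells of a type and less RNA per cell cannot be told apart, and this holds for every gene described here.

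The library totals behind the values were 20.4 to 29.6 M in IBxDU and 21.7 to 35.9 M in IB, which puts a transcript of 2 kb at 0.5 RPKM on 20.4 to 35.9 counted reads. The tissue label was checked against marker genes. The fast-fibre markers MYL1 and TNNC2 averaged 15126 and 16687 scaled RPKM in IBxDU, against 17227 and 19323 scaled RPKM in IB. The epithelial gene KRT14 was near 0, at 0.045 scaled RPKM in IBxDU and 0.047 in IB. Of 8 epithelial genes found, 4 averaged above 0.5 RPKM in either genetic type. These were KRT8 (1.09 in IBxDU and 1.89 in IB), KRT19 (0.907 and 1.44), KRT10 (0.452 and 0.549) and TP63 (4.04 and 5.79). All 4 were lower in IBxDU, with a median log2 difference of −0.58, and 0 were called by the limits given below. In 3 libraries (IBxDU 702, IBxDU 732 and IB 903) the genes in the table accounted for 99.3 to 99.4% of the counted reads, against 93.7 to 96.2% for the other 9 libraries, which are called lower-share below. In 231 tested genes those 3 libraries were all over 2-fold above the other 9. NFKB1, a subunit of a transcription factor of inflammation, shows the size of this split, with 209 and 223 scaled RPKM in IBxDU 702 and IBxDU 732 and 196 in IB 903, against 3.19 to 4.64 in the other 9 libraries. IBxDU 732 also stood apart by its scaling factor of 0.705, and IBxDU 702 had the highest factor, 1.24.

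Levels are given as scaled RPKM, which is the read density of a transcript relative to its length and the library total, after rescaling the libraries by a trimmed mean. For each group of 6 the lowest, the median and the highest animal are printed. Differences are IBxDU minus IB on the log2(scaled RPKM + 0.1) scale with the standard error (SE) of the limma fit, and this scale understates the change of genes under about 1 RPKM. Tests covered the 10635 genes that averaged above 0.5 RPKM in either genetic type. Calls were made where the unadjusted limma p did not exceed 0.01 and the fold reached 1.5, and 110 genes (1.03%) were called higher in IBxDU and 37 (0.348%) higher in IB. These shares are the ones to set beside the counts of called genes in every gene list below. At a Benjamini-Hochberg adjusted p under 0.05 from limma, 13 genes (0.122%) remained, 10 of them higher in IBxDU and 3 higher in IB. No other tested gene passed this limit, also where only an exact permutation p, which is unadjusted, is printed below. At an unadjusted limma p under 0.05, 540 genes were higher in IBxDU and 383 higher in IB. The split of the calls moved with the scaling, with 137 genes higher in IBxDU and 21 higher in IB without scaling, and 75 and 59 after quantile normalization. Over all tested genes the median difference was 0.005, with 5413 genes above 0 and 5222 below, and it was 0.10 without scaling.

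**Figure D1:**
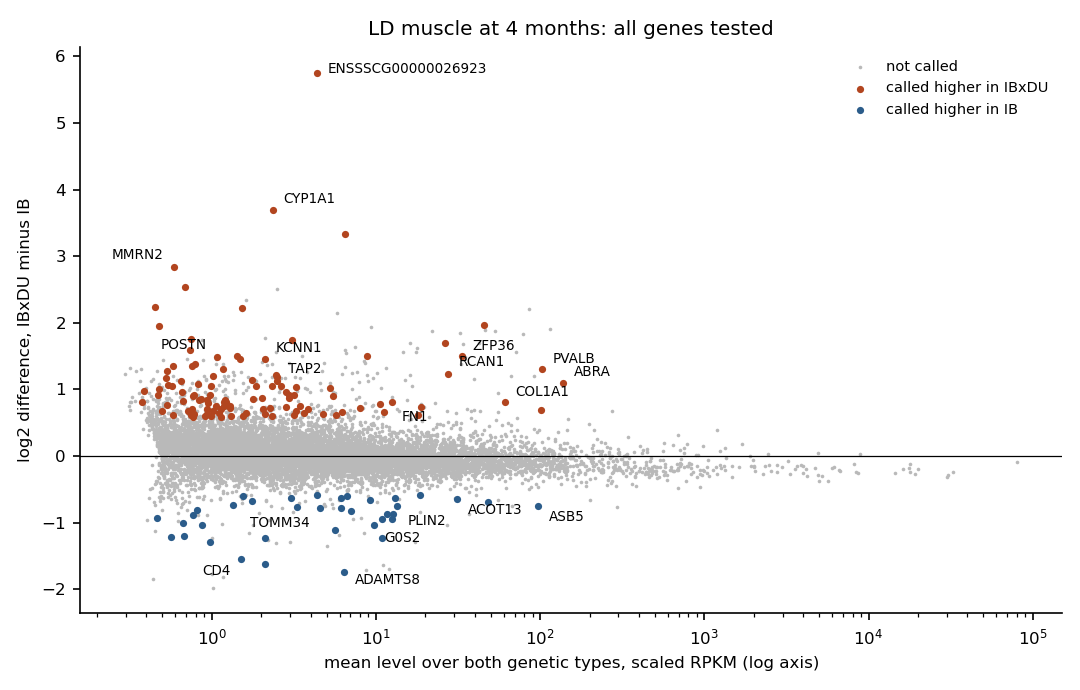
Difference between genetic types against mean level for the 10635 tested genes, with IBxDU minus IB on the log2(scaled RPKM + 0.1) scale on the vertical axis and mean scaled RPKM on a log horizontal axis. Coloured points are the 110 genes called higher in IBxDU and the 37 called higher in IB; the IBxDU-higher genes sit mostly at low levels, 64 of them under 2 RPKM.

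The genes called higher in IBxDU were changed by a median of 1.82-fold and at most 54.0-fold, and 64 of the 110 averaged under 2 RPKM while 13 averaged over 10 RPKM. Those called higher in IB were changed by a median of 1.78-fold and at most 3.33-fold, and 12 of 37 averaged under 2 RPKM while 11 averaged over 10 RPKM. The values of the 6 IBxDU and the 6 IB animals did not overlap in 83 genes (0.78%), of which 58 were higher in IBxDU, 25 were higher in IB and 42 were also called. Of the 147 called genes, 47 have no symbol in the tables used.

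Of the 10 genes higher in IBxDU at this threshold, the 5 with the largest differences were genes with IB medians of at most 0.157 scaled RPKM. ENSSSCG00000026923, which has no symbol, had 4.99, 7.15 and 15.7 scaled RPKM in IBxDU, against 0, 0.0382 and 0.233 in IB. These values rest on 587 reads in the 6 IBxDU libraries and 4 reads in the 6 IB libraries. Every IBxDU animal was above every IB animal. The difference was 5.76 ± 0.36 (SE), a fold of 54.0, with a limma adjusted p of 2.2e-06, and its size depended on the pseudocount, being 3.92 at 0.5 RPKM and 7.80 at 0.01 RPKM.

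MMRN2 (ENSSSCG00000024048) encodes multimerin 2, an endothelial matrix protein, and had 0.691, 1.04 and 1.69 scaled RPKM in IBxDU, against 0, 0.0872 and 0.137 in IB. The groups did not overlap, and the difference was 2.83 ± 0.31 (limma adjusted p = 0.00131). The endothelial list did not move with it: MMRN2 was the 1 of 14 tested endothelial markers that was called, and the other 13 had differences from −0.17 to 0.52. The gene ENSSSCG00000030198, listed as ENV, a name used for retroviral envelope genes, had 1.06, 1.10 and 1.63 scaled RPKM in IBxDU, against 0.0442, 0.110 and 0.295 in IB (2.54 ± 0.28, limma adjusted p = 0.00131). Reads of such repeated genes can be shared between copies, so that this value is uncertain as to which copy it counts. ENSSSCG00000010411 had 0.389, 0.780 and 1.24 scaled RPKM in IBxDU, against 0.0187, 0.0973 and 0.112 in IB (2.24 ± 0.29, limma adjusted p = 0.00522). ENSSSCG00000026405 had 0.548, 0.871 and 1.08 scaled RPKM in IBxDU, against 0, 0.157 and 0.223 in IB (1.95 ± 0.31, limma adjusted p = 0.0316), values that rest on 28 reads in the 6 IBxDU libraries and 5 reads in the 6 IB libraries. In all of these genes the 2 groups were apart without overlap. Reads were mapped to Sscrofa10.2, which was built from a Duroc sow, and whether reads from Iberian alleles map less well in these genes was not tested.

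The other 5 genes higher in IBxDU at this threshold were well above the detection floor in both groups. ENSSSCG00000001931 had 2.98, 3.30 and 4.38 scaled RPKM in IBxDU, against 1.17, 1.40 and 1.83 in IB (1.21 ± 0.14, limma adjusted p = 0.0017). KCNN1 (ENSSSCG00000013892), a small-conductance calcium-activated potassium channel, had 1.79, 2.83 and 6.01 scaled RPKM in IBxDU, against 0.677, 1.11 and 1.25 in IB (1.46 ± 0.25, limma adjusted p = 0.0438). TMEM132A (ENSSSCG00000013113), a transmembrane protein, had 2.85, 3.55 and 4.56 scaled RPKM in IBxDU, against 1.31, 1.67 and 2.04 in IB (1.06 ± 0.16, limma adjusted p = 0.0186). None of these overlapped between the genetic types. ATOH8 (ENSSSCG00000008230), a basic helix-loop-helix transcription factor, had 3.60, 4.18 and 4.58 scaled RPKM in IBxDU, against 1.48, 2.32 and 2.64 in IB, again without overlap (0.92 ± 0.14, limma adjusted p = 0.0167). The fifth, FN1, is described with the matrix genes.

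The 3 genes higher in IB at an adjusted p under 0.05 were CD4, TOMM34 and ENSSSCG00000001134. CD4 (ENSSSCG00000000687) marks helper T cells and, in some species, macrophages, and had 0.530, 0.604 and 1.33 scaled RPKM in IBxDU, against 1.32, 2.23 and 3.55 in IB. It was 2.91-fold higher in IB (−1.54 ± 0.26, limma adjusted p = 0.0392), and 5 of 6 IB animals were above every IBxDU animal. The other 5 tested T-cell markers were not called, and ranged from −0.23 for LCK to 2.20 ± 2.42 for CD8B. CD8B averaged 121 scaled RPKM in IBxDU and 49.9 in IB, against 0.645 and 0.438 for CD8A, so that its use as a T-cell marker here is uncertain. CD3E, CD3G and ZAP70 were not found by symbol. TOMM34 (ENSSSCG00000007383), a cytosolic co-chaperone of mitochondrial protein import, had 2.69, 3.08 and 4.43 scaled RPKM in IBxDU, against 5.25, 5.63 and 6.54 in IB (−0.79 ± 0.13, limma adjusted p = 0.0363). ENSSSCG00000001134 had 3.42, 6.86 and 9.08 scaled RPKM in IBxDU, against 11.6, 15.0 and 21.0 in IB (−1.24 ± 0.22, limma adjusted p = 0.0438). TOMM34 and ENSSSCG00000001134 did not overlap between groups.

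**Figure D2:**
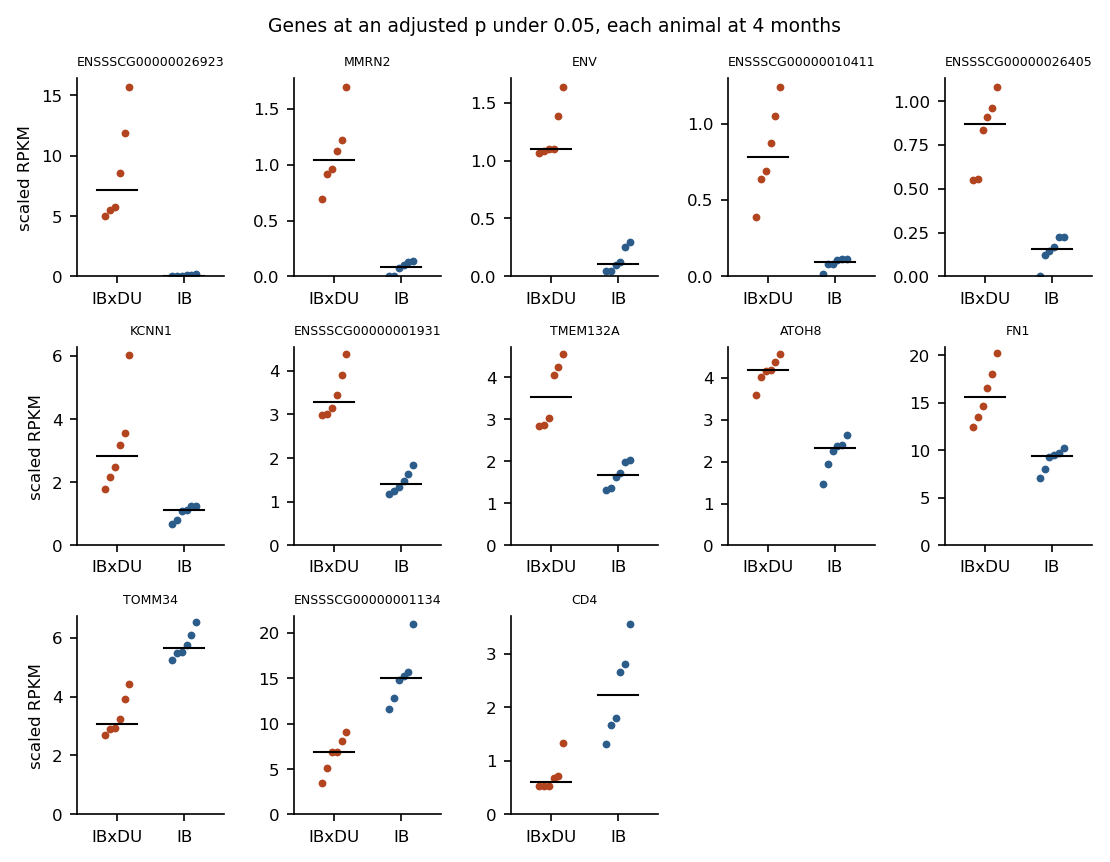
Scaled RPKM of each of the 12 animals for the 13 genes at a limma adjusted p under 0.05, IBxDU left and IB right in each panel, points for animals and bars for group medians. The 6 IBxDU animals are above the 6 IB animals in the 10 genes higher in IBxDU, and CD4 is the gene in which 1 IBxDU animal reaches into the IB range.

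Of these 13 genes, 5 had a limma adjusted p under 0.05 in all 12 fits that left out 1 library (ENSSSCG00000026923, MMRN2, ENV, ENSSSCG00000001931 and ENSSSCG00000010411). ATOH8 did so in 9 fits, TMEM132A in 6, ENSSSCG00000001134 and ENSSSCG00000026405 in 4 each, KCNN1 and FN1 in 3 each, and CD4 and TOMM34 in 2 each. In the 9 lower-share libraries alone, 4 IBxDU and 5 IB, all 13 were under 0.05.

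Of the gene lists compared, the extracellular matrix held the most called genes, and with 43 tested genes it was also the largest list. The matrix is the protein mesh around the fibres that bears and transmits force, and its collagens, glycoproteins and proteoglycans come mainly from fibroblasts. Of 43 tested matrix genes 8 were called higher in IBxDU and 1 higher in IB. Together these were 20.9%, against 1.03% and 0.348% of all tested genes in the 2 directions. In 39 the difference was above 0, with a median of 0.37 against 0.005 over all tested genes. The counts ranged from 6 to 10 higher in IBxDU when 1 library was left out, with 1 higher in IB each time, and were 7 and 1 without IB 816 and IBxDU 732 together and 15 and 1 in the lower-share libraries.

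FN1 (ENSSSCG00000016174), fibronectin, which links cells to collagen, had 12.5, 15.7 and 20.2 scaled RPKM in IBxDU, against 7.13, 9.40 and 10.24 in IB, without overlap. It was 1.75-fold higher in IBxDU (0.81 ± 0.14, limma adjusted p = 0.0392). COL14A1, a collagen that sits on the surface of collagen fibrils, had 4.71, 7.48 and 9.39 scaled RPKM in IBxDU, against 2.22, 3.52 and 4.18 in IB. It did not overlap either (1.03 ± 0.20, limma adjusted p = 0.0823). COL1A1, a chain of the main fibrillar collagen, had 46.5, 85.7 and 96.6 scaled RPKM in IBxDU, against 28.6, 41.6 and 76.2 in IB. In COL1A1 4 of 6 IBxDU animals were above every IB animal (0.81 ± 0.25, two-sided exact permutation p = 0.0152, limma adjusted p = 0.365). Its partner chain COL1A2, at 0.58 ± 0.18, missed the fold limit, and COL3A1 at 0.48 ± 0.17 was not called.

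POSTN encodes periostin, a secreted protein of matrix under remodelling, and had 0.711, 1.67 and 2.74 scaled RPKM in IBxDU, against 0.191, 0.438 and 0.836 in IB (1.48 ± 0.33). CTHRC1, secreted by activated fibroblasts, had 0.467, 1.33 and 1.72 scaled RPKM in IBxDU, against 0.155, 0.421 and 0.515 in IB (1.39 ± 0.31). In both, 5 of 6 IBxDU animals were above every IB animal, with an exact permutation p of 0.00649 and a limma adjusted p of 0.145. THBS1, thrombospondin 1, had 2.43, 3.89 and 5.71 scaled RPKM in IBxDU, against 1.42, 2.00 and 3.22 in IB, with 4 of 6 IBxDU animals above the IB range (0.86 ± 0.24). BGN, biglycan, a small proteoglycan of collagen fibrils, had 19.4, 22.9 and 27.6 scaled RPKM in IBxDU, against 10.8, 11.7 and 21.1 in IB (0.73 ± 0.19). It overlapped more, with 3 of 6 IBxDU animals above the IB range. COL8A1, a short-chain collagen of vessel walls, had 0.519, 1.27 and 1.61 scaled RPKM in IBxDU, against 0.509, 0.685 and 0.875 in IB (0.70 ± 0.24), and its lowest animals were at the same level in both groups.

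Of the 43 tested matrix genes 4 were below 0, and ADAMTS8, a secreted metalloproteinase, was the 1 of them that was called. ADAMTS8 had 1.15, 2.58 and 5.62 scaled RPKM in IBxDU, against 3.36, 9.79 and 16.0 in IB, and 5 of 6 IB animals were above every IBxDU animal. It was 3.33-fold higher in IB (−1.74 ± 0.41, exact permutation p = 0.00649, limma adjusted p = 0.191). Of the matrix genes that were not called, COL12A1 at 1.18 ± 0.48 and THBS2 at 1.25 ± 1.03 had large differences with a large spread; these and the other uncalled members named were picked after their values were seen.

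**Figure D3:**
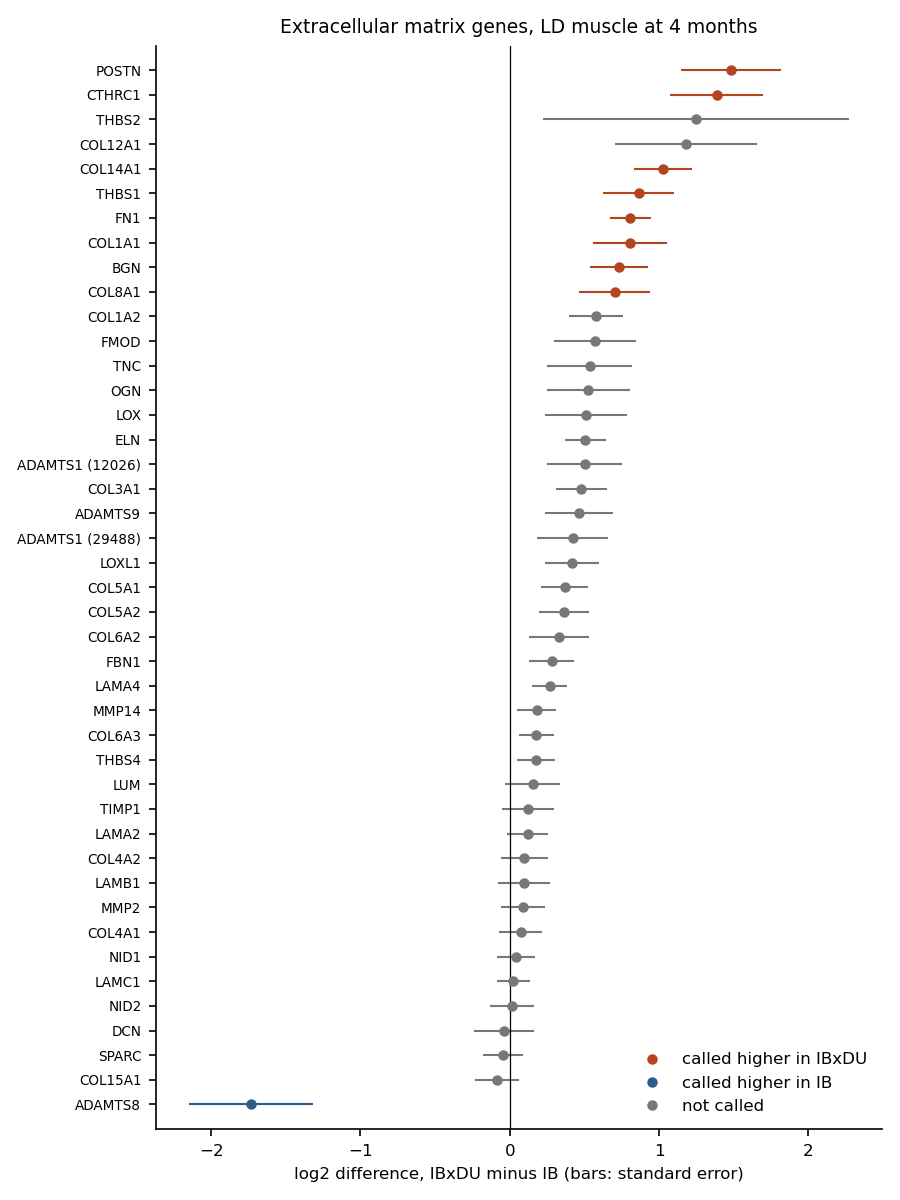
Difference between genetic types (IBxDU minus IB, log2, points with SE bars) for the 43 tested matrix genes, ordered by size; the 2 gene IDs named ADAMTS1 carry the end of their ID. Points to the right of 0, 39 of 43, are higher in IBxDU, the 8 called genes run from 0.70 for COL8A1 to 1.48 for POSTN, and ADAMTS8 stands alone at −1.74.

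The fibroblast markers had mostly positive differences too. Of 11 tested, 10 were above 0, with a median difference of 0.33, and 1 (COL1A1, which is also in the matrix list) was called, or 0 to 3 with 1 library left out. Their summed level was 454 to 762 scaled RPKM in IBxDU (median 671) and 402 to 555 in IB (median 497), so that the groups overlapped. The fibroblast proteoglycan DCN averaged 158 scaled RPKM in IBxDU and 155 in IB. The part of fibroblast content in the matrix differences was not tested. Outside the lists, FNDC1 and MFAP2, a fibronectin-domain protein and a microfibril protein, were picked after their values were seen. MFAP2 had 2.16, 2.86 and 3.33 scaled RPKM in IBxDU, against 1.15, 1.81 and 2.14 in IB (0.72 ± 0.16), and FNDC1 had 0.913, 1.04 and 1.77 in IBxDU, against 0.388, 0.677 and 0.772 in IB (0.84 ± 0.22), both without overlap.

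All 9 tested macrophage markers had differences above 0, with a median of 0.48. Of them 1 (11.1%) was called, against 1.03% of all tested genes called higher in IBxDU. With 1 library left out 0 to 3 were called. MRC1, the mannose receptor of tissue macrophages, had 0.744, 1.45 and 1.89 scaled RPKM in IBxDU, against 0.529, 0.791 and 0.924 in IB. In MRC1 5 of 6 IBxDU animals were above the IB range (0.75 ± 0.22, exact permutation p = 0.013, limma adjusted p = 0.337). CSF1R (0.59 ± 0.24), CD68 (0.48 ± 0.23) and CD14 (0.52 ± 0.25) were not called. The summed level of the 9 markers was 38.6 to 81.5 scaled RPKM in IBxDU and 25.2 to 68.8 in IB, which overlap widely. IRF5, a transcription factor of the interferon response, was called in every fit that left out 1 library and was picked after its values were seen. It had 0.714, 1.11 and 1.63 scaled RPKM in IBxDU, against 0.497, 0.539 and 0.644 in IB (0.85 ± 0.18).

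Of 11 tested genes of antigen presentation 2 (18.2%) were called, both higher in IBxDU, against 1.03% of all tested genes. Differences were above 0 in 10 of them, with a median of 0.41. TAP2, a subunit of the transporter that loads peptides onto class I molecules, had 1.84, 3.48 and 5.25 scaled RPKM in IBxDU, against 1.21, 1.49 and 1.89 in IB. In TAP2 5 of 6 IBxDU animals were above every IB animal (1.13 ± 0.21, limma adjusted p = 0.0823). PCD1A, the pig CD1A gene, whose product presents lipids, had 0.621, 0.966 and 1.84 scaled RPKM in IBxDU, against 0.192, 0.344 and 0.553 in IB, without overlap (1.35 ± 0.28, limma adjusted p = 0.101). TAP2 lies in the highly polymorphic major histocompatibility complex, and a difference in mapping between its alleles was not tested. Of 19 interferon-response genes 1 (5.26%) was called, IFI44L. It had 2.86, 3.55 and 5.38 scaled RPKM in IBxDU, against 1.69, 2.51 and 3.03 in IB (0.62 ± 0.19).

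Immediate early genes, which are transcribed within minutes of a stimulus and then switched off, had the highest median difference of the lists with at least 5 tested members, 0.54. Of 21 tested genes 3 (14.3%) were called, all higher in IBxDU, against 1.03% of all tested genes. Differences were above 0 in 18, and 3 or 4 genes were called in each fit that left out 1 library. ZFP36, which encodes tristetraprolin, a factor that destabilises mRNA, had 28.4, 45.4 and 84.5 scaled RPKM in IBxDU, against 8.41, 16.5 and 32.9 in IB. In ZFP36 4 of 6 IBxDU animals were above the IB range (1.51 ± 0.33, exact permutation p = 0.00649, limma adjusted p = 0.139). NR4A2, an orphan nuclear receptor, had 0.753, 1.34 and 2.56 scaled RPKM in IBxDU, against 0.389, 0.512 and 0.725 in IB, without overlap (1.20 ± 0.28). KLF4, a zinc-finger transcription factor, had 2.04, 3.90 and 5.34 scaled RPKM in IBxDU, against 0.986, 1.92 and 2.39 in IB, with 5 of 6 above the IB range (0.97 ± 0.25). FOS, at 1.56 ± 0.61, averaged 110 scaled RPKM in IBxDU and 33.7 in IB and was not called. Times of tissue sampling after death were not analysed here, and their part in these differences was not tested.

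Genes of calcium signalling and muscle activity included RCAN1, an inhibitor of the phosphatase calcineurin, with 23.5, 27.1 and 92.6 scaled RPKM in IBxDU, against 11.1, 13.4 and 21.5 in IB. RCAN1 did not overlap (1.23 ± 0.31, exact permutation p = 0.00216, limma adjusted p = 0.243) and was the 1 of 23 tested calcium genes that was called. That is 4.35%, against 1.03% of all tested genes called higher in IBxDU. PVALB, parvalbumin, the calcium buffer of fast fibres, had 70.2, 158 and 177 scaled RPKM in IBxDU, against 18.4, 60.2 and 112 in IB. In PVALB 5 of 6 IBxDU animals were above every IB animal (1.31 ± 0.36, limma adjusted p = 0.281). The other 7 tested fast-fibre genes were all slightly below 0. ABRA, a muscle protein that binds actin, and SPHK1, sphingosine kinase 1, lie outside the lists and are named because their difference changed with age. ABRA had 77.1, 174 and 346 scaled RPKM in IBxDU, against 55.6, 79.3 and 121 in IB (1.10 ± 0.30). SPHK1 had 0.714, 0.942 and 1.17 scaled RPKM in IBxDU, against 0.443, 0.577 and 0.777 in IB (0.59 ± 0.19).

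Among single genes of other roles, CYP1A1, a cytochrome P450 induced through the aryl hydrocarbon receptor, had 0.257, 3.51 and 14.4 scaled RPKM in IBxDU, against 0.031, 0.0935 and 0.181 in IB. All 6 IBxDU animals were above all IB animals, but they spread widely among themselves (3.70 ± 0.73, limma adjusted p = 0.0895). SDF2L1, a partner of chaperones in the endoplasmic reticulum, was the 1 of 18 stress genes of that compartment that was called. That is 5.56%, against 1.03% of all tested genes called higher in IBxDU. SDF2L1 had 0.362, 0.636 and 1.74 scaled RPKM in IBxDU, against 0.150, 0.277 and 0.552 in IB (1.06 ± 0.35, limma adjusted p = 0.405). METTL27, a methyltransferase-like gene, had 0.486, 0.600 and 2.01 scaled RPKM in IBxDU, against 0.151, 0.268 and 0.370 in IB, without overlap (1.35 ± 0.33). F3, tissue factor, which starts blood clotting, had 2.14, 3.62 and 5.05 scaled RPKM in IBxDU, against 0.729, 1.60 and 2.31 in IB (1.19 ± 0.28). RNF181, a ubiquitin ligase, split the IBxDU animals. It had 0.635 and 2.21 scaled RPKM in IBxDU 708 and IBxDU 732 and 14.7 to 24.0 in the other 4 IBxDU animals, against 0.322, 0.655 and 0.952 in IB (3.34 ± 0.73, limma adjusted p = 0.139). F3 and RNF181 were picked after their values were seen.

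**Figure D4:**
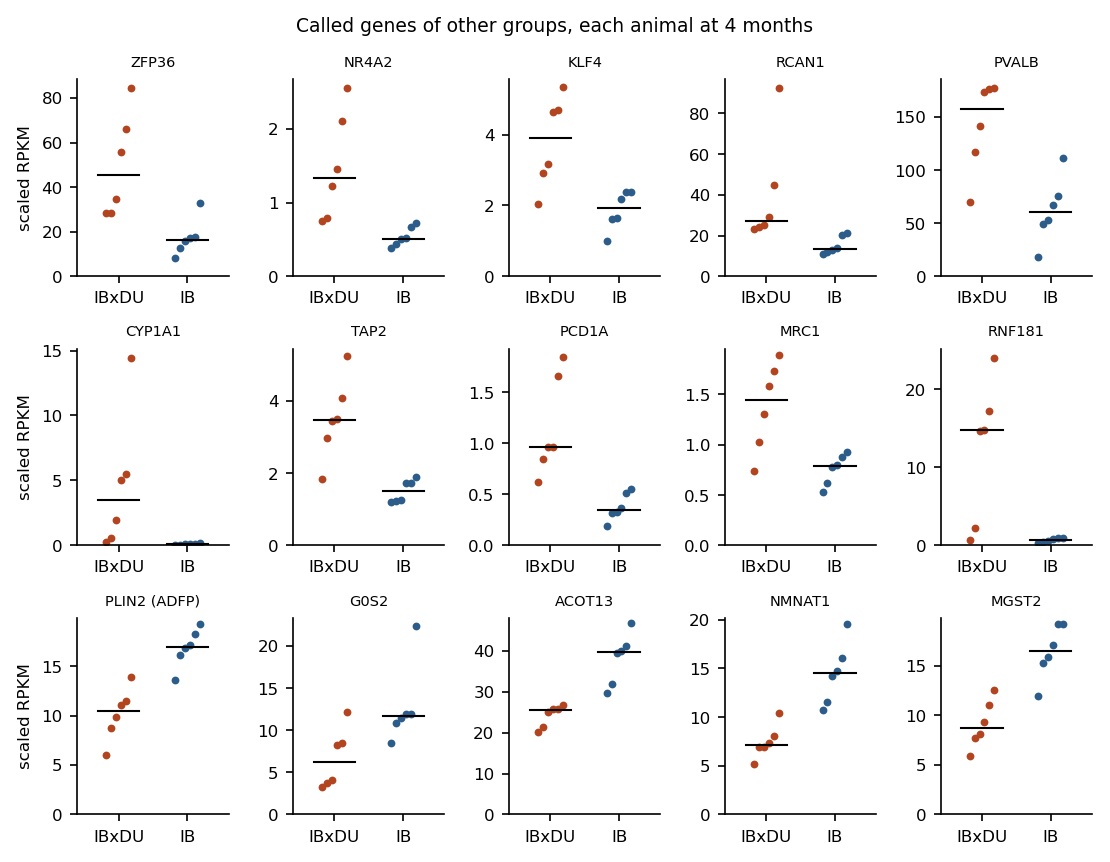
Scaled RPKM of each animal for 15 called genes of other groups, IBxDU left and IB right in each panel, points for animals and bars for group medians. The first 10 panels are higher in IBxDU, RNF181 shows 2 IBxDU animals near the IB level, and the last 5 (PLIN2, listed as ADFP, to MGST2) are higher in IB.

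Of 10 tested genes of lipolysis and lipid droplets 2 (20%) were called, both higher in IB, against 0.348% of all tested genes. Of the 10, 8 were below 0, with a median of −0.34. With 1 library left out the median ranged from −0.46 to −0.19, and 1 or 2 genes were called. ADFP (ENSSSCG00000005171), an older name of perilipin 2, which coats lipid droplets in muscle fibres, had 6.05, 10.5 and 13.9 scaled RPKM in IBxDU, against 13.6, 16.9 and 19.3 in IB. In ADFP 5 of 6 IB animals were above every IBxDU animal (−0.76 ± 0.17, exact permutation p = 0.00433, limma adjusted p = 0.146). G0S2, an inhibitor of the triglyceride lipase ATGL, had 3.23, 6.21 and 12.2 scaled RPKM in IBxDU, against 8.46, 11.6 and 22.4 in IB. The groups overlapped, with 1 IB animal above the IBxDU range (−1.03 ± 0.32, exact permutation p = 0.0303). LIPE, hormone-sensitive lipase, at −0.51 ± 0.23, and ABHD5, the activator of ATGL, at −0.40 ± 0.13, were not called.

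ACOT13, a mitochondrial acyl-CoA thioesterase, had 20.1, 25.4 and 26.7 scaled RPKM in IBxDU, against 29.8, 39.8 and 46.8 in IB, without overlap (−0.65 ± 0.13, limma adjusted p = 0.0895). It was the 1 of 26 tested genes of fatty acid oxidation and PPAR targets that was called. That is 3.85%, against 0.348% of all tested genes called higher in IB. NMNAT1, a nuclear enzyme of NAD synthesis, had 5.19, 7.14 and 10.4 scaled RPKM in IBxDU, against 10.7, 14.5 and 19.5 in IB, without overlap (−0.95 ± 0.17, limma adjusted p = 0.0685). MGST2, a microsomal glutathione transferase, had 5.92, 8.71 and 12.6 scaled RPKM in IBxDU, against 11.97, 16.4 and 19.2 in IB, with 5 of 6 IB animals above the IBxDU range (−0.87 ± 0.18). SNCG (ENSSSCG00000026850), gamma-synuclein, a protein of nerve and fat cells, had 3.33, 4.06 and 6.01 scaled RPKM in IBxDU, against 6.17, 7.45 and 11.3 in IB (−0.78 ± 0.18). Neither SNCG nor C1orf50 overlapped between groups, and C1orf50 had 6.93, 10.9 and 11.6 scaled RPKM in IBxDU, against 12.7, 16.0 and 18.3 in IB (−0.63 ± 0.14).

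KCNH2, a voltage-gated potassium channel known from the heart, had 1.86, 3.44 and 5.50 scaled RPKM in IBxDU, against 5.31, 6.94 and 12.1 in IB, with 5 of 6 IB animals above the IBxDU range (−1.11 ± 0.25). ASB5, a muscle protein of the ubiquitin ligase type, had 48.0, 76.2 and 110 scaled RPKM in IBxDU, against 78.3, 123 and 158 in IB (−0.75 ± 0.22). Among genes with no symbol, ENSSSCG00000024021 had 2.10, 2.37 and 2.68 scaled RPKM in IBxDU, against 2.92, 4.01 and 5.59 in IB (−0.77 ± 0.16). ENSSSCG00000005431 (−1.20 ± 0.31) and ENSSSCG00000029444 (−1.30 ± 0.28) did not overlap between groups either.

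Most metabolic and contractile groups had no called gene. None of the 31 genes of glycolysis and glycogen, 40 of the respiratory chain, 42 of the mitochondrial ribosome, 22 of the proteasome or 8 of slow fibres was called, with medians of −0.02, −0.06, −0.12, −0.14 and −0.09. Over all tested genes 1.03% were called higher in IBxDU and 0.348% higher in IB. At these shares lists of this size mostly hold few or no called genes, so the counts do not set these lists apart. The mitochondrial ribosome and proteasome medians lay at −0.03 and −0.04 without scaling. GAPDH, a glycolytic enzyme, had 16205, 26601 and 71487 scaled RPKM in IBxDU, against 26092, 34107 and 37993 in IB (−0.24 ± 0.28), and the highest IBxDU value was that of IBxDU 732. ENO3, the muscle enolase, differed by −0.25 ± 0.22. TNNC1, the slow-fibre troponin C, had 2075, 3142 and 6006 scaled RPKM in IBxDU, against 3319, 3789 and 4108 in IB (−0.15 ± 0.24, and 0.02 after quantile normalization).

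Fat-cell markers and lipid synthesis had no called gene either, which is what lists of this size mostly hold at the shares over all tested genes. Of 14 adipocyte markers listed 7 were found and 6 tested, and 0 were called. ADIPOQ, FABP4, LEP, LPL, CD36, AQP7 and PNPLA3 were not found by symbol, so these markers cover fat cells only in part. PLIN1, the droplet coat of adipocytes, had 3.52, 7.59 and 16.1 scaled RPKM in IBxDU, against 6.12, 7.92 and 11.4 in IB (−0.11 ± 0.32), and its direction turned without IBxDU 702 or IBxDU 748. GPD1, glycerol-3-phosphate dehydrogenase, had 664, 850 and 1202 scaled RPKM in IBxDU, against 839, 929 and 1037 in IB, and CFD, adipsin, had 59.3, 93.5 and 145 in IBxDU, against 71.2, 112 and 179 in IB. These ranges lie within or over each other. Of 11 genes of fatty acid and triacylglycerol synthesis 0 were called, and others listed, such as ACACB, DGAT2 and SREBF1, were not found by symbol. FASN, fatty acid synthase, had 8.70, 23.3 and 54.8 scaled RPKM in IBxDU, against 18.8, 24.8 and 35.3 in IB (−0.20 ± 0.37). SCD, the desaturase that makes oleic acid, had 13.5, 28.2 and 65.5 scaled RPKM in IBxDU, against 36.9, 42.5 and 61.7 in IB (−0.58 ± 0.32, exact permutation p = 0.143). The spread of the IBxDU animals was wider than that of the IB animals in PLIN1, FASN and SCD.

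The lists of myogenic factors (9 tested), insulin and growth factor signalling (21), atrophy and autophagy (21), heat shock proteins (22), the circadian clock (16), the cell cycle (12), Wnt signalling (18) and NF-kB (17) had 0 called genes, with medians between −0.08 and 0.19. With 1.03% and 0.348% of all tested genes called, 0 is also what lists of this size mostly hold. Of 11 genes of serine, glycine and alanine synthesis 0 were called, at a median of −0.25 that ranged from −0.40 to −0.04 when 1 library was left out. PER1, a clock gene, was at 0.73 ± 0.26 (exact permutation p = 0.0346) and CRY2, another clock gene, at 0.47 ± 0.14. ALDH5A1, an enzyme that breaks down GABA, had 3.05, 3.64 and 4.20 scaled RPKM in IBxDU, against 4.44, 4.76 and 5.38 in IB. It did not overlap but stayed under 1.5-fold (−0.39 ± 0.11, exact permutation p = 0.00216). DHRS3, which reduces retinal, had 27.3, 28.9 and 34.0 scaled RPKM in IBxDU, against 32.3, 39.3 and 53.9 in IB (−0.48 ± 0.12). HBB, beta globin, a marker of red blood cells, overlapped between groups and had 35.0, 80.4 and 178 scaled RPKM in IBxDU, against 44.4, 65.1 and 109 in IB, and 0 of 4 erythroid genes were called.

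**Figure D5:**
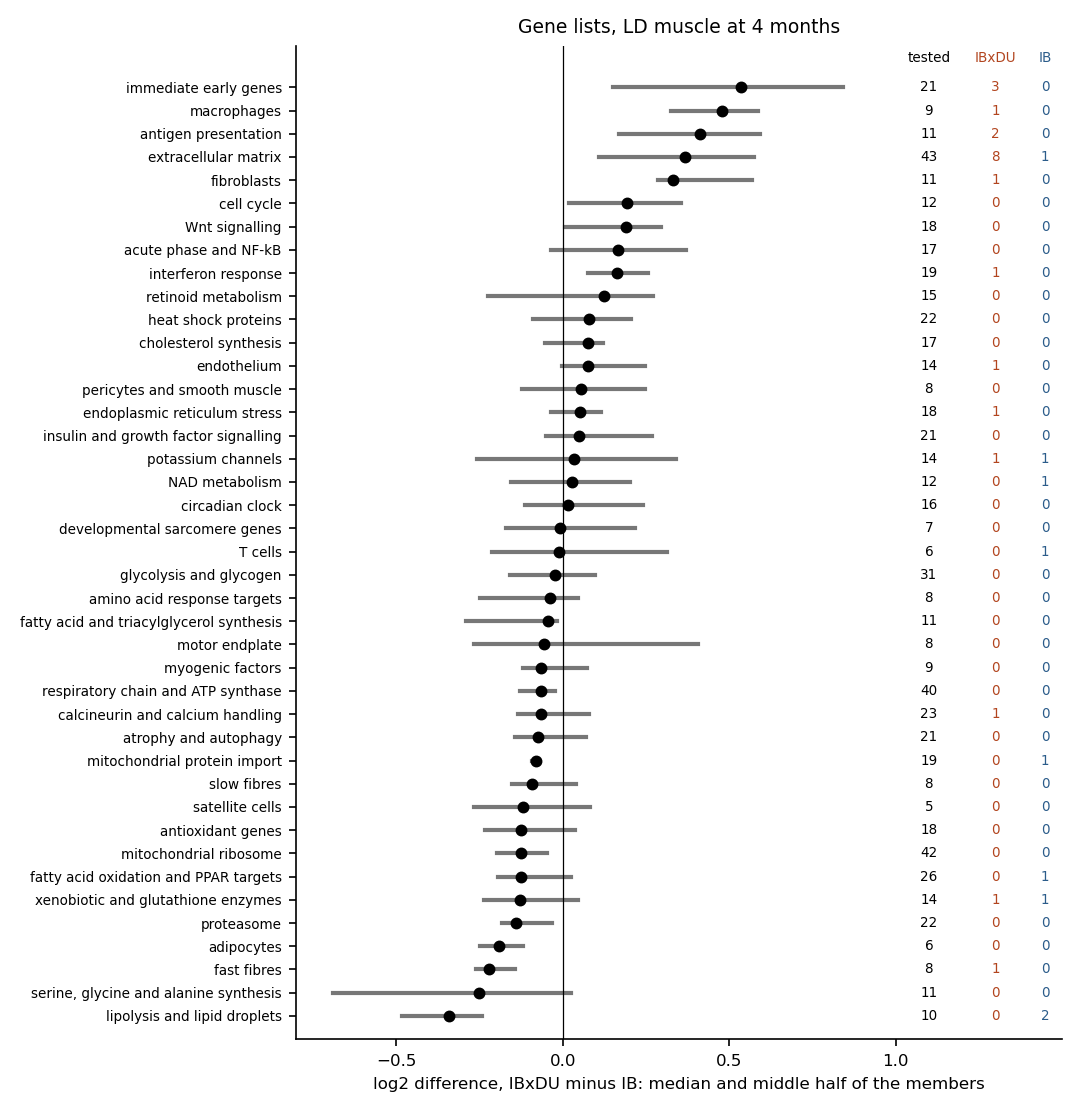
Median difference (points) and middle range of the members (bars, first to last quartile) for each gene list with at least 5 tested genes, IBxDU minus IB on the log2 scale, with the numbers tested, called higher in IBxDU and called higher in IB at the right. Immediate early genes (0.54), macrophages (0.48), antigen presentation (0.41) and the extracellular matrix (0.37) are toward IBxDU, lipolysis and lipid droplets (−0.34) toward IB, and most other lists straddle 0.

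A further list held the genes that the study's text discusses between genetic types. Of 27 tested, 3 were called higher in IBxDU (CYP1A1, ENV and PVALB) and 3 higher in IB (ADAMTS8, KCNH2 and ASB5). The study chose many of these on the same libraries, so their direction is not independent evidence. The others were not called. HDAC9, a histone deacetylase, had 0.564, 0.941 and 3.30 scaled RPKM in IBxDU, against 1.38, 2.55 and 6.97 in IB (−1.27 ± 0.44, exact permutation p = 0.0368), and was called without IBxDU 702 (−1.58), IB 889 (−1.45) or IB 907 (−1.42). TP63, a transcription factor of epithelia and muscle, had 1.92, 2.39 and 10.4 scaled RPKM in IBxDU, against 4.40, 5.11 and 9.89 in IB (−0.75 ± 0.36). It was called without IBxDU 732, at −1.08. MTUS2 (ENSSSCG00000009323) had 1.00, 1.83 and 6.13 scaled RPKM in IBxDU, against 0.882, 1.35 and 1.66 in IB (0.65 ± 0.34). PSAT1, an enzyme of serine synthesis, had 0.947, 1.59 and 1.84 scaled RPKM in IBxDU, against 1.21, 1.99 and 7.31 in IB (−0.66 ± 0.34), and GPT2, an alanine aminotransferase, had 0.0753, 0.139 and 0.229 in IBxDU, against 0.122, 0.270 and 3.17 in IB (−1.12 ± 0.54). The highest IB animal stands far above the IB median in PSAT1 and GPT2. ALDH2 (−0.25 ± 0.19), CEBPA (−0.24) and CTNNB1 (−0.10 ± 0.09) differed less.

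The same comparison in newborns was set beside these results; it shares no animal with them. At birth 508 of 12255 tested genes (4.15%) were called by the same limits. The newborn groups were uneven in the share of counted reads in listed genes. It was 99.3 to 99.5% in IBxDU 402, 412, 425 and 427 and in IB 503, against 88.0 to 93.1% in the other newborn libraries. No term for this entered the newborn fit or the interaction, and its part in their results was not tested. Of the 147 genes called at 4 months 12 were also called at birth, which is 8.16% of the 4-month calls and 2.36% of the newborn calls, and 8 of the 12 had the same direction at both ages. Of the 107 IBxDU-higher genes that were also tested at birth, 46 had the same sign there, and of the 36 IB-higher genes 30 did.

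Among the 8 genes of like direction, ENV averaged 2.64 ± 0.795 scaled RPKM in newborn IBxDU and 0.657 ± 0.635 in newborn IB (SD, n = 6 each), and TAP2 averaged 3.28 ± 1.60 in newborn IBxDU and 1.24 ± 0.487 in newborn IB. VASH2, a vasohibin that modifies tubulin, averaged 17.8 ± 7.29 scaled RPKM in newborn IBxDU and 2.62 ± 0.989 in newborn IB, and at 4 months had 1.57, 2.10 and 5.60 in IBxDU, against 0.530, 1.20 and 1.60 in IB (1.06 ± 0.31). EPHB2, an ephrin receptor, had 0.499, 0.654 and 0.873 scaled RPKM at 4 months in IBxDU, against 0.180, 0.236 and 0.505 in IB (1.01 ± 0.25), and 1.07 ± 0.29 was its difference at birth. ENSSSCG00000021164 (1.49 ± 0.41 at 4 months), ENSSSCG00000022116 (0.96 ± 0.30) and ZNF133 (0.72 ± 0.21), a zinc-finger gene, were likewise higher in IBxDU at both ages, and ASB5 was lower in IBxDU at both (−1.49 ± 0.39 at birth).

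The 4 genes called in opposite directions were ABRA, SPHK1, ADAMTS8 and ENSSSCG00000007227. The difference between the ages was tested itself, as the interaction of genetic type with age, and passed a limma adjusted p of 0.05 in 3 of 12128 genes (0.0247%) and in 0 without scaling. ABRA averaged 85.6 ± 43.4 scaled RPKM in newborn IBxDU and 295 ± 142 in newborn IB (SD, n = 6 each), opposite to its order at 4 months, and the 4-month difference exceeded the newborn one by 2.98 ± 0.54 (limma adjusted p = 0.0440). SPHK1 averaged 1.21 ± 0.226 scaled RPKM in newborn IBxDU and 2.27 ± 0.530 in newborn IB, with an interaction of 1.42 ± 0.26 (limma adjusted p = 0.0440). ENSSSCG00000016982 averaged 99.9 ± 18.7 scaled RPKM in newborn IBxDU and 53.6 ± 7.31 in newborn IB, against no called difference at 4 months (−0.13 ± 0.11), with an interaction of −1.03 ± 0.18 (limma adjusted p = 0.0440). ADAMTS8 averaged 9.89 ± 6.70 in newborn IBxDU and 1.91 ± 0.788 in newborn IB, and its interaction of −3.75 ± 0.76 did not pass (limma adjusted p = 0.0780).

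The matrix, immediate early and macrophage lists had positive medians at 4 months and negative ones at birth, and the difference was not tested for lists. This turn was not particular to them. Interferon response (0.16 and −0.50), fibroblasts (0.33 and −0.23) and Wnt signalling (0.19 and −0.14) had it too. The fibroblast list shares collagen genes with the matrix list. Glycolysis and glycogen (−0.38) and the respiratory chain (−0.32) were also negative at birth, while heat shock proteins (0.76) and endoplasmic reticulum stress genes (0.58) were positive. Matrix genes had a newborn median of −0.28 with 9 of 46 above 0, immediate early genes −0.32 with 3 of 22 above 0, and macrophage markers −0.39 with 0 of 9 above 0. The median over all genes tested at birth was −0.01.

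Single libraries were left out in turn to see which results rested on them. Of the 147 called genes 76 were called in every one of the 12 fits, 56 higher in IBxDU and 20 higher in IB. Without IBxDU 732 the counts were 198 higher in IBxDU, 68 higher in IB and 31 at an adjusted p under 0.05 (limma), and without IB 816 and IBxDU 732 together they were 221, 89 and 26. Of 58 named called genes, without those named only for their chromosome order, 46 kept their call in each of the 12 fits. All 58 kept their direction. C1orf50 lost its call only without IBxDU 702 (−0.52) and VASH2 only without IB 907 (0.98). MRC1 (0.65 to 0.90) lost it without IBxDU 708, 748 or 758 or IB 816 or 907, and IFI44L (0.52 to 0.70) without IBxDU 702 or 714 or IB 889 or 907. COL1A1 (0.69 to 0.97) lost it without IBxDU 708, 732, 748 or 758 or IB 816, 905 or 907, and COL8A1 (0.61 to 0.91) kept it only without IBxDU 732 or IB 909. G0S2 (−1.24 to −0.86) lost its call without IBxDU 714, 748 or 758 or IB 889, 905, 907 or 909. SDF2L1 (0.82 to 1.22) lost it without IBxDU 708, 714, 732 or 748 or IB 816, 903, 905 or 907. SPHK1 (0.52 to 0.66) lost it without IBxDU 702, 714, 732 or 758 or IB 889, 907 or 909. ZNF133 (0.62 to 0.89) lost it without IBxDU 702, 708, 714 or 758 or IB 889 or 905. ENSSSCG00000022116 (0.77 to 1.20) lost it without IBxDU 708, 714 or 748 or IB 889, 903, 905 or 909, and ENSSSCG00000007227 (0.49 to 0.79) without IBxDU 702, 714 or 758 or IB 816, 889, 903, 905 or 909. Without IB 816 and IBxDU 732 together, BGN (0.61), ASB5 (−0.56) and ABRA (1.03) were among the genes no longer called. In the 9 lower-share libraries ABRA (0.75) and ACOT13 (−0.58) missed the limits.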

How the data were processed

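Per the file header, the authors deposited RPKM values per gene and library, made in CLC Genomics Workbench by mapping paired reads of a polyadenylated RNA library to Sscrofa10.2 (22861 genes; the study's text calls the values FPKM). From the steps between low values the totals were worked out, and with them the values became whole read numbers (tolerance 0.001) for 100% of the 17846 genes above 0; whether they count reads or read pairs is not given in the sources used here.

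The 12 libraries of 4 months were scaled by log ratios to their average library, averaged after 30% had been trimmed from either tail, in genes averaging above 0.5 RPKM. Genes above 0.5 RPKM on average in either group entered limma 3.58.1 (trend, R 4.3.3) as log2(scaled RPKM + 0.1) and were called at p of at most 0.01 and 1.5-fold, which are the limits of the study; its count test was not used because the values are RPKM. Adjusted p values are Benjamini-Hochberg over all tested genes. Single genes have a two-sided exact permutation p, at least 0.00216 for 6 against 6. Newborns were fitted in the same way, and the interaction over all 24 libraries. Fits were tested on simulated data.

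Named genes are those at an adjusted p under 0.05, up to 12 per direction with the largest fold among called genes without overlap, called list members (up to 3 of the highest level where none was called) and genes that the study names; some are not reported here, and others are named as picked later. The comparison and the lists were chosen with earlier results of these data known. Symbols came from tables of gene names (11450 IDs) and the study's supplementary tables (413 more). Alternatives were no scaling, quantile normalization, other filters and pseudocounts, limma without trend, a 4-group fit, each library left out, IB 816 and IBxDU 732 left out, a term for lower-share libraries, the lower-share libraries alone (listed genes under 98% of the total) and limma's voom on the recovered reads. Deposited columns all belonged to samples and none was left out.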

Additional observations from a re-analysis of the deposited data

Results flagged for a closer look

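Within each genetic type, the highest or lowest of the 6 animals was checked for a gap to its neighbour. The gap had to exceed Dixon's critical share of the group's whole range. The check covered the 58 named called genes, without those named only for their chromosome order, which makes 116 groups. The critical share was passed in 12 groups. For normally distributed values chance alone passes it in about 1 of 20. The check used scaled RPKM and not the log scale of the fits, in genes picked for being called, so that this rate is only a rough guide. IBxDU 702 stood apart in CYP1A1 (14.4 scaled RPKM), RCAN1 (92.6), C1orf50 (6.93, the lowest) and VASH2 (5.60). IBxDU 732 stood apart in CD4 (1.33) and ENSSSCG00000021164 (2.44, the lowest), and IBxDU 714 in SDF2L1 (1.74). Among IB animals, IB 889 stood apart in SNCG (11.3) and ENSSSCG00000010411 (0.0187, the lowest), IB 909 in ZFP36 (32.9), IB 907 in G0S2 (22.4) and IB 816 in ENSSSCG00000005431 (2.25).

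The difference between genetic types itself differed between 4 months and birth in 3 genes, by the interaction term of the limma fit: 2.98 in ABRA, 1.42 in SPHK1 and −1.03 in ENSSSCG00000016982, each at a limma adjusted p of 0.0440. Without scaling 0 genes passed.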

How the results depend on the processing

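Counts are given as higher in IBxDU, higher in IB and at an adjusted p under 0.05 (limma), and were 110, 37 and 13 as reported. No scaling gave 137, 21 and 8, quantile normalization 75, 59 and 9, no filter 167, 49 and 11, a pseudocount of 0.5 RPKM 71, 27 and 12, limma without trend 120, 40 and 8, the 4-group fit 114, 38 and 5, a term for lower-share libraries 155, 46 and 21, the 9 lower-share libraries 208, 71 and 44, and the fit without IB 816 and IBxDU 732 gave 221, 89 and 26. A filter at 1 RPKM, a pseudocount of 0.01 RPKM and voom moved no count by over 1.5 times. Leaving out 1 library gave 85 to 198 genes higher in IBxDU, 30 to 68 higher in IB and 5 to 31 at an adjusted p under 0.05. The interaction with age passed in 3 genes with pseudocounts of 0.5 and 0.01 RPKM and in 0 without scaling. The causes were not tested.

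The 58 named called genes, without those named only for their chromosome order, all kept their direction in every alternative. Of them 33 also kept their call in each. ATOH8, at an adjusted p under 0.05 as reported, was no longer called in the 4-group fit (0.91). Directions turned in 5 uncalled genes: PLIN1 without IBxDU 702 (0.011) or IBxDU 748 (0.10; −0.33 to 0.10 over the 12 fits without 1 library), FASN without IBxDU 748 (0.057; −0.47 to 0.057), TNNC1 after quantile normalization (0.021), HBB in the lower-share libraries (−0.079), and NFKB1 without IB 816 and IBxDU 732 (−0.064), with the term for lower-share libraries (−0.033) and in those libraries alone (−0.084). No paired analysis was possible because the groups hold different animals that share no replicate number.

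Limits: 64 of the 110 genes called higher in IBxDU averaged under 2 RPKM, and 71 genes were called higher in IBxDU at a pseudocount of 0.5 RPKM. Litters and sires are not in the labels and were not in the fits.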

Other observations

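Called genes were placed along the chromosomes by the order of protein-coding genes in RefSeq's Sscrofa11.1 table, for 93 called genes with a unique symbol there. Another called gene lay within 5 genes for 6 of them (6.45%), against 387 of 7045 other tested genes (5.49%). The pairs were SLC29A2 with CD248, CSF2RB with PVALB, and CHRDL2 with NEU3, each changed in the same direction.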
